A study of Mus musculus with 12 samples.

Results

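The spliceosome genes and splicing regulators described here are the 65 genes, of 23420 in the deposited expression table, whose symbols begin with Srsf, Hnrnp, Snrp, Sf3a, Sf3b, Prpf or U2af in the form used for the named splicing proteins. They comprised 11 genes of SR proteins, 18 of hnRNP proteins, 12 of Sm and U snRNP proteins, 8 of the SF3A and SF3B proteins, 13 of PRPF proteins and 3 of U2AF proteins. The choice was made by symbol and used no measured value, but earlier results of these data were known when it was made. Hnrpdl, Hnrpll and 0610009D07Rik, which the table lists under older symbols of Hnrnpdl, Hnrnpll and Sf3b6, were not matched and are not among the 65.

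Libraries came from mouse fetal liver cells sorted by PIR (PIR+ or PIR-) in each of the genotypes wild type and KO, which gives 4 groups of 3 libraries, 12 in all. PIR denotes the paired immunoglobulin-like receptors, and the labels describe sorted lineage-negative, c-Kit-positive, IL7Ra-positive cells in tubes of 100 cells. Each tube received the same amount of ERCC spike-in RNA. The labels give no target gene for the KO, no strain, and no statement that the libraries of a group came from separate animals, so p-values measure the spread between these libraries, which may be technical. Groups were taken from the sample titles. The source name gave E12.5 for 6 libraries and E14.5 for 6, with both in every group, and in 6 libraries the PIR sign of the markers field contradicted that of the title. E12.5 stood with a PIR+ markers field and E14.5 with a PIR- one in all 12 libraries, so the day is in doubt wherever the markers field and the title conflict. The receptor genes Pira2 and Lilrb3 followed the titles, being listed at 0 in the 6 PIR- libraries.

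Pre-mRNA splicing removes introns through the spliceosome, which is built from small nuclear ribonucleoproteins. The U1 particle marks the 5′ splice site, U2AF binds the 3′ splice site, SF3A and SF3B hold the U2 particle at the branch point, and PRPF proteins serve the tri-snRNP and the catalytic complex. Sm proteins form the ring around the U snRNAs, while SR and hnRNP proteins bind exons and introns and shift the choice of splice sites.

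The deposited values are molecule counts divided by a factor for each library. Library sums ran from 155374 to 284648, and the values corresponded to an estimated 208321 to 442839 molecules, of which 4918 to 9211 belonged to the 65 genes. PIR+ libraries had the higher values as a whole: over 4542 tested genes, the median log2 difference of PIR+ over PIR- averaged over genotype was 0.45. Each comparison was therefore made on the deposited scale and again after median-of-ratios scaling, which divides each library by 1 factor so that the median gene is centred. On that scale the same median was 0.01. The summed markers of some other cell types moved with the sort. The summed deposited values of 6 B lineage markers were 12.8 to 27.9 in PIR+ libraries and 505.8 to 814.5 in PIR- libraries, and those of 5 neutrophil and macrophage markers were 69.3 to 117.0 and 5.5 to 40.9. No marker of either list was at 0 throughout, but not every one followed its sum and some were low throughout. Elane was 0 in all PIR+ libraries and reached 1.7 in PIR- ones. Lyz2 reached 3.8 in PIR+ and 1.3 in PIR- libraries, and Pax5 was at most 1.1 in any library. Erythroid markers ranged from 27.8 to 1804.1 in PIR+ and from 39.0 to 1604.4 in PIR- libraries, with 5 libraries rich in Hba-a1 spread over the 4 groups. All 5 were among the 6 libraries in which the markers field contradicted the title. The part of these cell types in the results below was not tested. In pooled cells, fewer cells of a type and less RNA per cell cannot be told apart.

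Splicing genes were abundant. Of the 65, 60 reached a value of 10 in at least 3 libraries and were tested. Their median level, as the mean deposited value over 12 libraries, was 54.3, against 16.6 for all tested genes, with 94.2 for hnRNP genes and 16.2 for PRPF genes. Molecules were counted by barcodes on an oligo-dT primer, so these levels are molecules and not reads per length. The highest was Hnrnpa3 at 374.4, followed within their own groups by Snrpg at 230.3, Srsf3 at 174.9, Sf3b2 at 77.6, Prpf8 at 63.8 and U2af2 at 61.0. Hnrnpul1, Prpf6, Prpf40b and Snrpn were below the limit, and Srsf12 was listed at 0 in all 12 libraries. Values of 57 genes were whole multiples of the value of 1 molecule, within a tolerance of 0.055, in all 12 libraries. Those of Hnrnpa1, Prpf31, Hnrnpa3, Snrpn and Hnrnpab were so in 2, 3, 5, 5 and 9 libraries, so their counts may include reads shared with similar copies or overlapping genes and are uncertain.

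After centring on the median gene, 10 of 17 tested hnRNP genes were lower in PIR+ than in PIR- cells averaged over genotype, as were 4 of 10 SR genes (Srsf1, Srsf2, Srsf3 and Srsf10), 3 of 11 Snrp genes (Snrpa1, Snrpb and Snrpd1) and 1 of 11 PRPF genes (Prpf19). None of the 8 SF3A and SF3B genes and none of the 3 U2AF genes passed there, and no splicing gene was higher. With the deposited values no splicing gene was lower and 24 were higher, of which 6 were hnRNP genes. No splicing gene passed on both scales, where 902 of all 4542 tested genes passed on both in the same direction. Every one of these splicing calls thus depended on the scale.

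The counts stand against a large background. The 18 lower calls among 60 splicing genes after scaling (limma, adjusted p under 0.05) were 30.0%, where 14.2% of all 4542 tested genes were lower and 15.4% were higher. The 24 higher calls on the deposited scale were a smaller share than the 55.0% of all tested genes that were higher, and 4.58% of all were lower. They were 15 without PIR+ wild type 3, PIR+ KO 3 or PIR- KO 1, where 45.4%, 44.9% and 45.2% of all tested genes were higher. The median log2 difference of the 60 genes was -0.12 after scaling and 0.32 on the deposited scale. Without the 5 libraries rich in Hba-a1, the scaled fit called 9 lower and 1 higher (Sf3b1, log2 0.33, adjusted p = 0.0466), where 10.9% of all tested genes were lower, and the deposited fit called 5. The 6 libraries labelled E12.5 gave 4 lower in the scaled fit, against 6.91% of all tested genes, and the 6 labelled E14.5 gave 8, against 8.81%. In the 6 libraries with the same PIR sign in title and markers field, PIR+ was labelled E12.5 throughout and PIR- E14.5. Subset and labelled day cannot be told apart there, and PIR- wild type and PIR+ KO had 1 library each. The set without the 5 libraries rich in Hba-a1 differed from these 6 by PIR+ KO 2 alone and is no separate check. In that set PIR- wild type had 1 library, all PIR- libraries were labelled E14.5, and PIR+ KO 2 was the only PIR+ library so labelled.

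**Figure D1:**
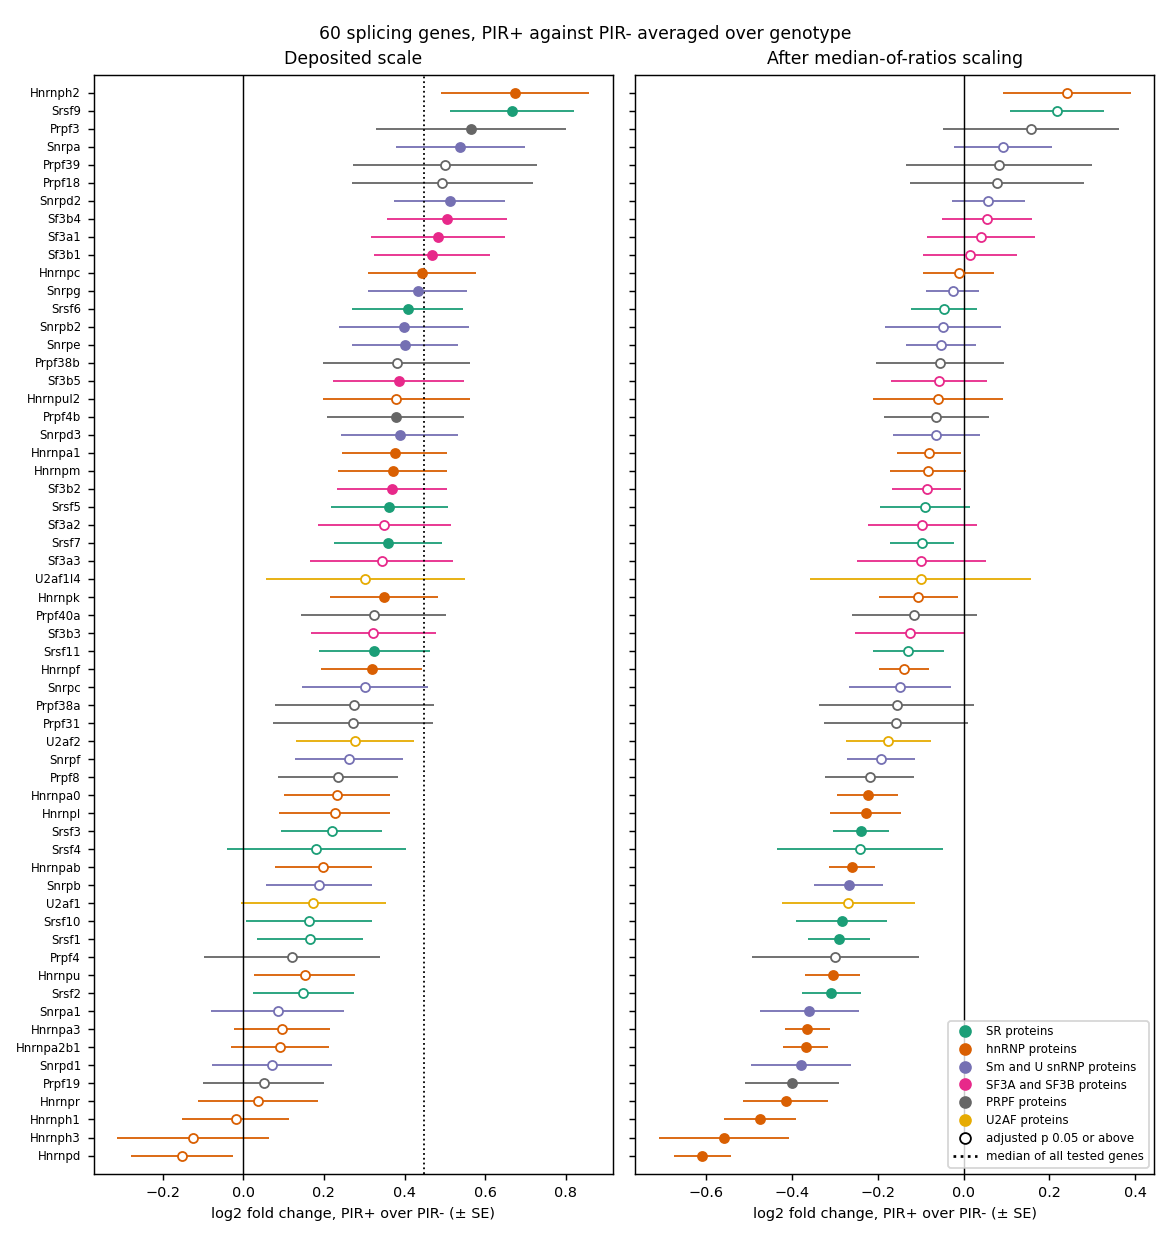
Log2 fold change of PIR+ over PIR- averaged over genotype, with its standard error, for the 60 tested splicing genes on the deposited scale (left) and after median-of-ratios scaling (right). Each row is 1 gene, colours give the protein group, filled points have an adjusted p under 0.05, and the dotted line is the median of all tested genes. Most points lie left of that line, and Hnrnpd lies lowest on both scales, at -0.15 and -0.61.

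The promoters of 2 genes from the lower part of this order, Hnrnpd and Hnrnpa3, and of Srsf9 from the upper part are shown to compare their sequence upstream of the start of transcription. They were picked after their values were seen. Each is the 250 bases before the annotated start, from RefSeq on GRCm38.p6, on the strand of the gene, with motif matches in capitals. The windows are chr5:99978939-99979188 (minus strand) for Hnrnpd, chr2:75659009-75659258 (plus) for Hnrnpa3 and chr5:115326927-115327176 (plus) for Srsf9.
Hnrnpd: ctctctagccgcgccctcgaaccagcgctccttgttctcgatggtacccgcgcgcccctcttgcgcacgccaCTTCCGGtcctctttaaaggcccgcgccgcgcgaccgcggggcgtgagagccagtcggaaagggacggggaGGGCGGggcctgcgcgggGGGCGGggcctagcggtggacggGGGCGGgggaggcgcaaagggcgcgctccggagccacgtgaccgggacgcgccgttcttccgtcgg
Hnrnpa3: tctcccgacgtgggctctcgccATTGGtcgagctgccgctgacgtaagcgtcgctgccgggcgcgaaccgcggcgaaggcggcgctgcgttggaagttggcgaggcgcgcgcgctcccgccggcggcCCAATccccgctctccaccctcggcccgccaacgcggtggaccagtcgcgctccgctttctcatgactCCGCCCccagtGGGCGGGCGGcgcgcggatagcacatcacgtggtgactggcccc
Srsf9: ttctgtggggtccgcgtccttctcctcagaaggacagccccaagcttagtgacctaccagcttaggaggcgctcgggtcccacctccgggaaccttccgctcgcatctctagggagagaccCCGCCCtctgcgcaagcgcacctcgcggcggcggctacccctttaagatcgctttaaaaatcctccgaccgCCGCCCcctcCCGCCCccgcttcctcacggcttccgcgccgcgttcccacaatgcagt
The 6 motifs searched on both strands were CCGGAAG of ETS factors, GGGCGG of SP factors, the NRF1 motif, AAGATGGC of YY1, CCAAT and TATAAA, and matches could overlap. All 3 promoters held GGGCGG, with 3 matches each. CCGGAAG was in Hnrnpd alone of the 3, with 1 match, and CCAAT in Hnrnpa3 alone, with 2.

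Across the family, 57 of the 65 genes had a promoter in the table. CCGGAAG was in 29.8% of them, against 19.9% of 3470 tested genes and 7.83% of all 27025 genes. GGGCGG was in 66.7%, 66.3% and 35.4% in the same order, CCAAT in 50.9%, 41.4% and 37.5%, and TATAAA in 10.5%, 7.38% and 14.3%. The NRF1 and YY1 motifs were each in 1 splicing gene, or 1.75%, against 2.16% and 3.03% of tested genes and 0.877% and 1.83% of all genes. For GGGCGG the splicing genes were thus close to other tested genes. Of the 18 genes lower after scaling, 16 had a promoter in the table, and CCGGAAG was in 2 of them, GGGCGG in 13, CCAAT in 11, TATAAA in 2 and the NRF1 and YY1 motifs in 0. These shares were not tested. A match is a description of the letters only.

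HnRNP proteins coat nascent transcripts, and many favour exon skipping. Hnrnpd encodes AUF1, which also binds AU-rich elements that govern mRNA decay; the gene lies at chr5:99955935-99978938 on GRCm38. Its deposited values were 109.2, 117.1 and 140.3 in PIR+ wild type and 113.4, 131.7 and 134.2 in PIR- wild type. The PIR+ KO libraries had 124.2, 115.6 and 134.6 and the PIR- KO libraries 130.3, 144.1 and 174.1, and PIR+ and PIR- values overlapped in both genotypes. After scaling, its values were 103.7, 102.3 and 109.0 in the PIR+ wild-type libraries against 150.6, 169.6 and 148.2 in the PIR- ones, and in the KO 104.0, 105.2 and 92.5 against 158.1, 156.2 and 160.5. All 6 PIR+ libraries then lay below all 6 PIR- libraries. The log2 difference averaged over genotype was -0.61 ± 0.07 (SE) after scaling (limma, adjusted p = 2.06e-08) and -0.15 ± 0.13 on the deposited scale (adjusted p = 0.287).

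Hnrnph1, which binds G-rich tracts, and its relative Hnrnph3 showed a like pattern. Scaled Hnrnph1 values were 92.2, 78.4 and 67.4 in PIR+ wild type and 113.3, 95.8 and 123.4 in PIR- wild type. In the KO they were 75.1, 78.9 and 74.2 in PIR+ and 113.7, 96.9 and 107.0 in PIR- libraries. No PIR+ library reached the lowest PIR- library. The scaled log2 difference averaged over genotype was -0.47 ± 0.08 for Hnrnph1 (limma, adjusted p = 5.95e-05), with -0.02 on the deposited scale, and -0.56 ± 0.15 for Hnrnph3 (adjusted p = 0.00574), with -0.13 on the deposited scale. Hnrnph2, the third of these paralogs, stood at the other end: it was higher on the deposited scale, by 0.68 ± 0.18 (adjusted p = 0.00134), and its scaled difference was 0.24 ± 0.15 (adjusted p = 0.245). Whether paralogs differed from each other was not tested.

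The most abundant hnRNP genes were also lower after scaling. Scaled Hnrnpa3 ran from 305.2 to 340.9 in PIR+ (median 321.2) and from 372.4 to 479.3 in PIR- libraries (median 412.6), and scaled Hnrnpa2b1 from 221.8 to 242.8 (median 235.2) and from 281.5 to 314.3 (median 305.0). Neither gene overlapped between the subsets, and on the deposited scale both did. Both encode A/B-type hnRNPs, the core proteins of hnRNP particles. Their scaled log2 differences averaged over genotype were -0.36 ± 0.05 and -0.37 ± 0.05 (limma, adjusted p = 3.31e-06 and 2.93e-06). Hnrnpr differed by -0.41 ± 0.10 (adjusted p = 0.00185), with overlap of the subsets. Hnrnpu, a scaffold protein of the nuclear matrix, differed by -0.31 ± 0.06 (adjusted p = 5.13e-04) with none.

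In all, 8 of 60 splicing genes had every scaled PIR+ value below every PIR- value, against 7.16% of all tested genes: Hnrnpa2b1, Hnrnpa3, Hnrnpab, Hnrnpd, Hnrnph1, Hnrnph3, Hnrnpu and Srsf2. On the deposited scale Srsf9 alone did not overlap and was higher in PIR+, against 17.7% of all tested genes higher in that way.

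SR proteins bind exonic enhancers and recruit the splicing machinery. Srsf2, a regulator of exon inclusion, had deposited values of 137.7 to 174.9 in PIR+ (median 146.5) and 115.0 to 154.5 in PIR- libraries (median 136.9), which overlapped. Scaled, it ran from 111.7 to 135.9 (median 125.8) and from 138.2 to 168.6 (median 155.2), which did not overlap. Its scaled log2 difference averaged over genotype was -0.31 ± 0.07 (limma, adjusted p = 8.23e-04), and that of Srsf3, an SR protein with a single RNA recognition motif, was -0.24 ± 0.06 (adjusted p = 0.00549). Srsf9 had deposited wild-type values of 51.4, 45.4 and 50.2 in PIR+ against 26.5, 27.1 and 32.6 in PIR-, and KO values of 40.0, 43.6 and 64.6 against 29.7, 35.7 and 30.9. All 6 PIR+ values were above all 6 PIR- values, and it was higher by 0.67 ± 0.15 on the log2 scale (adjusted p = 1.73e-04). After scaling, its values overlapped and its difference was 0.22 ± 0.11 (adjusted p = 0.137).

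**Figure D2:**
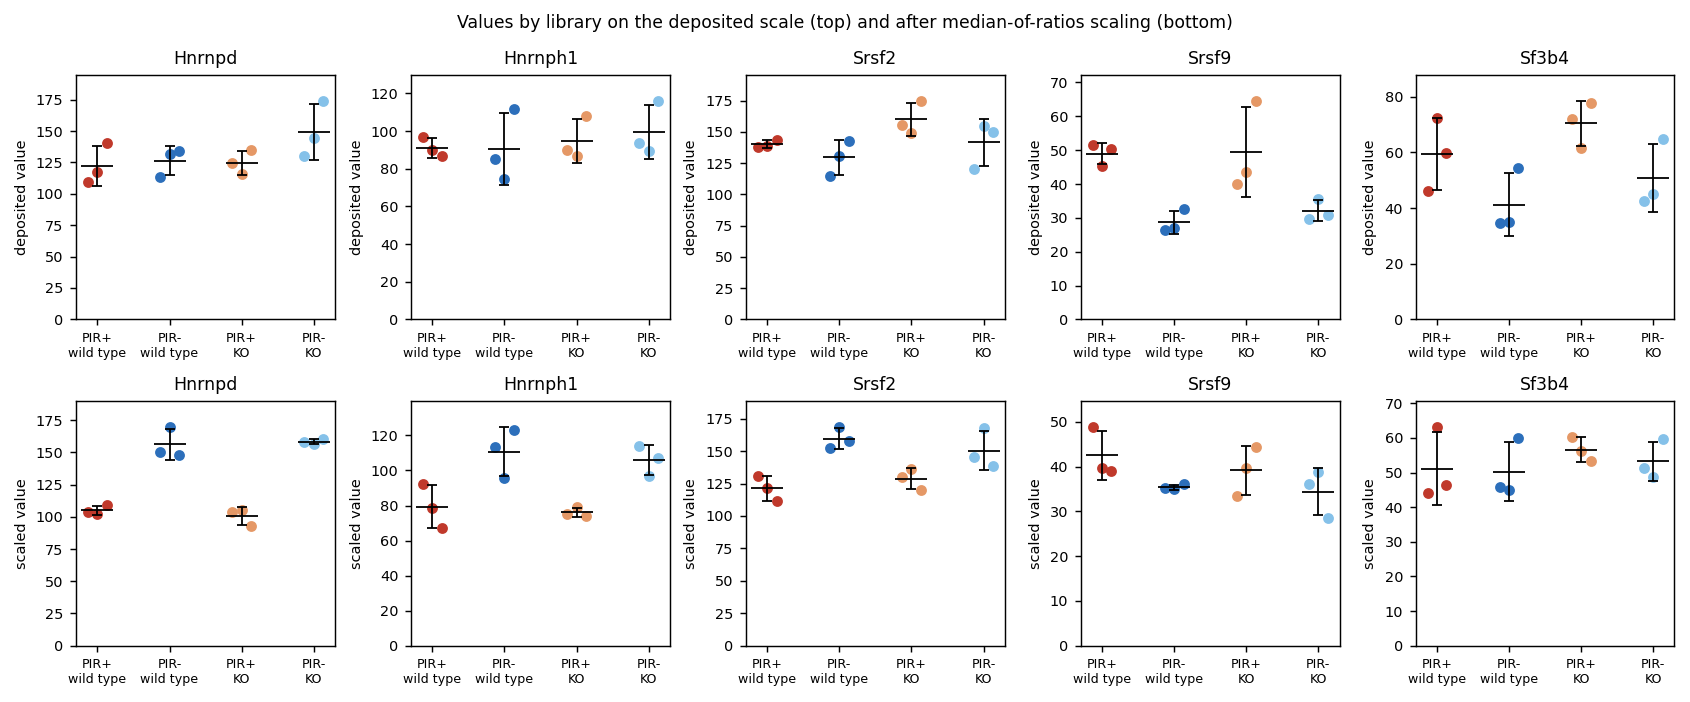
Values of 5 splicing genes in each library, on the deposited scale (top) and after median-of-ratios scaling (bottom), by group. Each point is 1 library, with the mean and SD over 3 libraries per group. Hnrnpd and Hnrnph1 overlap between PIR+ and PIR- on the deposited scale and separate after scaling, while Srsf9 separates on the deposited scale and overlaps after scaling.

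The core particles lay closer to the median gene. Among Snrp genes, which encode proteins of the U snRNPs, 6 of 11 were higher in PIR+ on the deposited scale averaged over genotype, against 55.0% of all tested genes. Snrpd2, an Sm ring protein, was higher by 0.51 ± 0.14 (limma, adjusted p = 0.00117), and its scaled difference was 0.06 ± 0.09 (adjusted p = 0.661). Snrpg, the most abundant of them, was higher by 0.43 ± 0.12 (adjusted p = 0.00215), with -0.03 ± 0.06 after scaling (adjusted p = 0.794). Snrpd1, the ring partner of Snrpd2, differed in the other direction after scaling, by -0.38 ± 0.12 (adjusted p = 0.0137), with 0.07 on the deposited scale. Its scaled values of 31.0 to 46.4 in PIR+ and 42.0 to 64.8 in PIR- libraries overlapped.

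SF3A and SF3B genes were higher on the deposited scale in 5 of 8 cases, against 55.0% of all tested genes. Among them were Sf3b1, the largest SF3B subunit, at 0.47 ± 0.14 (limma, adjusted p = 0.00431) and Sf3b4 at 0.51 ± 0.15 (adjusted p = 0.00289). After scaling, the 8 genes ran from -0.13 for Sf3b3 to 0.05 for Sf3b4, none past the threshold. Of the PRPF genes, Prpf19, a ubiquitin ligase of the catalytic complex, was lower after scaling by -0.40 ± 0.11 (adjusted p = 0.00561), and was 0.05 on the deposited scale. Prpf8, the protein at the catalytic centre, differed by -0.22 ± 0.10 after scaling (adjusted p = 0.114). U2af2 and U2af1, the subunits that read the polypyrimidine tract and the 3′ splice site, differed by -0.18 ± 0.10 (adjusted p = 0.195) and -0.27 ± 0.16 (adjusted p = 0.207).

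Shares within a library do not depend on its scale. The 65 genes held 2.10% ± 0.02 (SD, n = 6) of the summed values in PIR+ and 2.32% ± 0.05 (SD, n = 6) in PIR- libraries, with ranges of 2.08% to 2.14% and 2.24% to 2.36% that did not overlap. The hnRNP genes alone held 0.98% to 1.03% and 1.11% to 1.19%, without overlap. SF3A and SF3B genes held 0.171% ± 0.007 and 0.169% ± 0.011, and Snrp genes 0.396% ± 0.012 and 0.409% ± 0.025, both with overlap. The mix within the family differed too. HnRNP genes made up 47.2% to 48.8% of the family's sum in PIR+ and 49.5% to 50.8% in PIR- libraries. The ratio of the hnRNP sum to the sum of the SF3 and Snrp genes was 1.77 ± 0.05 (SD, n = 6) and 2.01 ± 0.08, and that of Hnrnpd to Srsf9 was 2.56 ± 0.39 and 4.55 ± 0.60. Neither ratio overlapped between the subsets. These ratios were formed after the values were seen and carry no test.

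**Figure D3:**
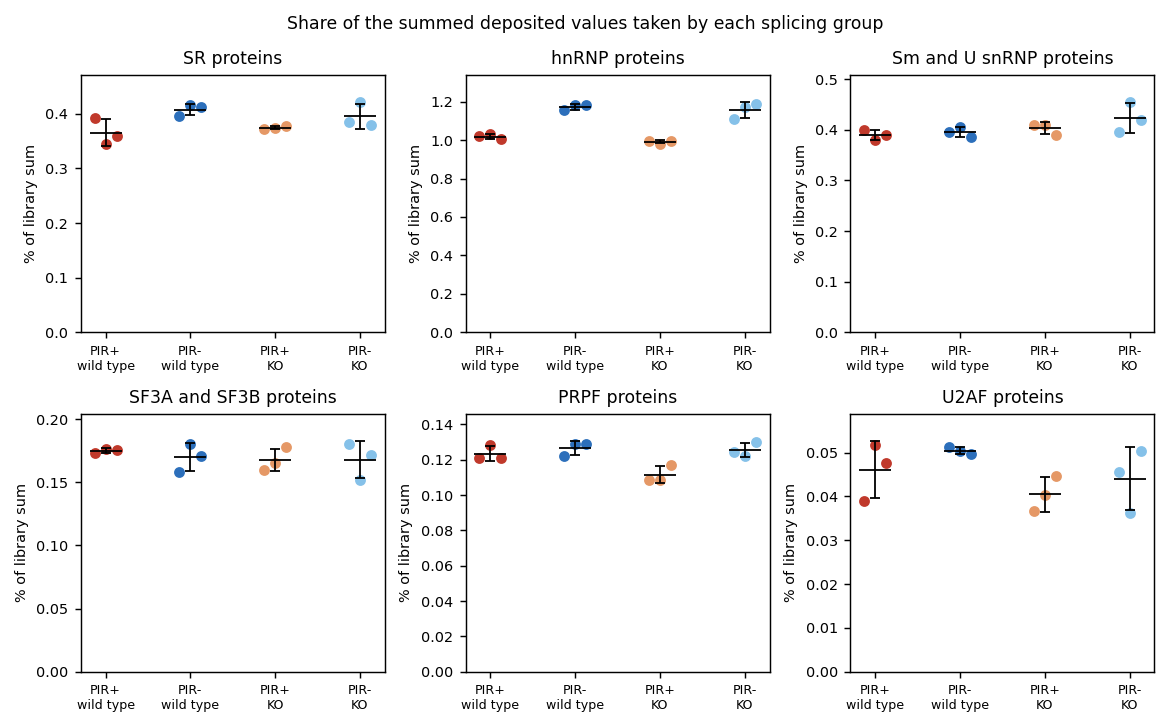
Share of each library's summed deposited values taken by the genes of each of the 6 splicing groups, in percent. Points are libraries, with the mean and SD over 3 libraries per group, and each axis starts at 0. The hnRNP genes lie between 0.98% and 1.03% in the PIR+ libraries and between 1.11% and 1.19% in the PIR- libraries, while the SF3 groups overlap.

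Within wild type, which asks how the subsets differ without the KO, 13 splicing genes were lower in PIR+ after scaling (limma, adjusted p under 0.05), or 21.7%, against 11.0% of all tested genes lower and 11.5% higher. They were Hnrnpa0, Hnrnpa2b1, Hnrnpa3, Hnrnpab, Hnrnpd, Hnrnph1, Hnrnph3, Hnrnpr, Hnrnpu, Snrpb, Srsf1, Srsf2 and Srsf3. The scaled log2 differences were -0.57 ± 0.09 for Hnrnpd (adjusted p = 2.97e-05), -0.60 ± 0.14 for Hnrnpr (adjusted p = 0.00196) and -0.64 ± 0.22 for Hnrnph3 (adjusted p = 0.0314). The 13 became 6 without a trended prior, 5 at E12.5, 2 at E14.5, 3 in the libraries with matching title and markers field and 4 without the globin-rich libraries, where 9.34%, 6.87%, 4.58%, 5.66% and 6.43% of all tested genes were lower. On the deposited scale 15 were higher, against 40.6% of all tested genes higher and 3.72% lower. There were 4 calls without PIR+ wild type 3 or PIR- wild type 1, 5 without PIR- wild type 2 and 7 without PIR+ wild type 2. In these fits, in the same order, 25.5%, 28.7%, 30.8% and 32% of all tested genes were higher. In the authors' deposited table, 10 of 62 splicing genes with a p-value in this comparison were under 0.05, against 12.6% of all genes with one. All 10 are among the 13, and the lowest was 1.24e-05 for Hnrnpa3. The header does not say whether those p-values are adjusted.

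Within the KO, 7 splicing genes were lower in PIR+ after scaling, or 11.7%, against 7.51% of all tested genes lower and 8.12% higher. They were Hnrnpa2b1, Hnrnpa3, Hnrnpab, Hnrnpd, Hnrnph1, Hnrnpu and Prpf19. Hnrnpd differed by -0.65 ± 0.09 on the log2 scale (limma, adjusted p = 5.6e-06), Hnrnpa2b1 by -0.38 ± 0.08 (adjusted p = 5.3e-04), Hnrnph1 by -0.47 ± 0.12 (adjusted p = 0.00569) and Prpf19 by -0.52 ± 0.15 (adjusted p = 0.0185). The 7 became 1 without a trended prior, at E12.5 or in the libraries with matching title and markers field, where 5.59%, 2.58% and 4.56% of all tested genes were lower. On the deposited scale Snrpa, Snrpd2 and Srsf9 were higher, against 22.5% of all tested genes higher and 2.97% lower. None was called without PIR+ KO 3 or PIR- KO 1, 1 without PIR- KO 2 and 5 without PIR- KO 3. In these fits, in the same order, 11.4%, 12.8%, 16.1% and 28.8% of all tested genes were higher. The difference of the subset effect between the genotypes was tested directly. No splicing gene passed on either scale, against 0.572% of all tested genes on the deposited and 0.749% on the scaled values. At an unadjusted p under 0.05 there were 0 on the deposited scale and 1 after scaling, Srsf1, where 5.5% and 8.78% of all tested genes had one.

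No splicing gene passed the test of KO against wild type. In PIR+ cells 0 of 60 were called on either scale, against 0.903% of all tested genes on the deposited and 1.01% on the scaled values, and 0 and 1 (Prpf19) had an unadjusted p under 0.05, against 6.89% and 9.58% of all tested genes. Prpf19 had deposited values of 39.3, 62.5 and 60.3 in wild type and 41.8, 40.2 and 46.4 in the KO, which overlapped, and a scaled log2 difference of -0.40 ± 0.15 (limma, adjusted p = 0.323). In the authors' deposited table, 0 of 64 splicing genes had a p-value under 0.05 in this comparison, against 3.08% of all genes with one, and the lowest was 0.0552 for Prpf19. The 95% interval of the fold lay within 2-fold in either direction for all 60 tested genes on both scales.

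In PIR- cells 0 of 60 were called on either scale as well, against 1.30% and 1.70% of all tested genes, while 6 on the deposited and 3 on the scaled values had an unadjusted p under 0.05, against 13.8% and 12.2% of all tested genes. Snrpf, an Sm ring protein, had the lowest adjusted p. Its deposited values were 64.1, 55.8 and 66.7 in wild type and 78.9, 95.7 and 90.4 in the KO, without overlap, and its log2 difference was 0.50 ± 0.19 (limma, adjusted p = 0.203), or 0.29 ± 0.11 after scaling (adjusted p = 0.267). The scaled differences of the 60 genes ran from -0.52 ± 0.21 for Hnrnpul2 to 0.40 ± 0.26 for Prpf38a. The 95% interval lay within 2-fold for 57 genes on the deposited scale and for 60 after scaling. Leaving out PIR- KO 1 gave 1 call on the deposited scale. Both KO comparisons share libraries with the subset comparisons.

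**Figure D4:**
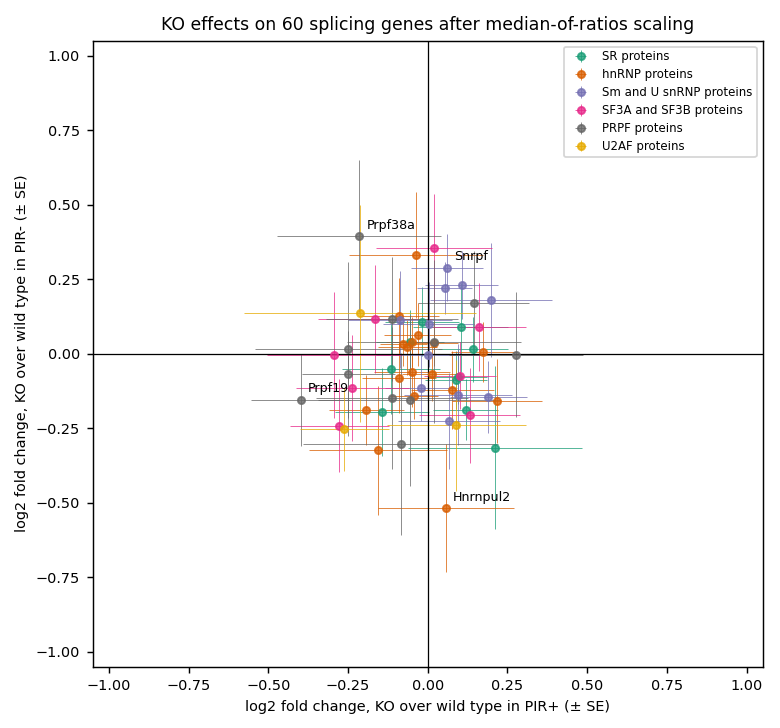
Log2 fold change of KO over wild type after median-of-ratios scaling, in PIR+ cells (x axis) and PIR- cells (y axis), with standard errors, for the 60 tested splicing genes coloured by protein group. No gene passed the threshold in either subset, and the points lie between -0.40 and 0.28 on the x axis and between -0.52 and 0.40 on the y axis.

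Other splicing factors, from a list of 109 genes of which 90 were tested, were also called higher on the deposited scale and mostly lower after scaling. Unlike the 60 splicing genes above, some were higher after scaling. Averaged over genotype, the deposited scale gave 36 higher in PIR+ and 0 lower, against 55.0% and 4.58% of all tested genes. After scaling 4 (4.44%) were higher and 17 (18.9%) lower, against 15.4% and 14.2%. The lowest scaled log2 difference was -0.645 for Tra2a, and the lowest adjusted p was that of Dek, also lower (limma, adjusted p = 4.37e-06). The 4 genes higher after scaling were higher on both scales, where 902 of all 4542 tested genes passed on both in the same direction. Rbm5, an RNA-binding regulator of apoptosis genes' splicing, had deposited values of 19.6 to 31.9 in PIR+ (median 23.7) and 7.0 to 14.7 in PIR- libraries (median 11.7), and its log2 difference was 1.04 ± 0.19 (limma, adjusted p = 2.63e-06), or 0.61 ± 0.15 after scaling (adjusted p = 0.00179). Mbnl1, which binds YGCY-type motifs, was 70.4 to 137.6 and 42.6 to 53.6, with log2 differences of 0.95 ± 0.14 (adjusted p = 1.27e-08) and 0.50 ± 0.09 (adjusted p = 4.47e-05). Neither gene overlapped between the subsets on either scale. Ptbp3, a polypyrimidine tract-binding protein, and Celf2, a regulator of splicing in lymphocytes, were higher by 0.93 ± 0.14 and 0.86 ± 0.13 on the deposited scale (adjusted p = 4.23e-08 and 4.98e-08). After scaling they were higher by 0.48 ± 0.09 and 0.40 ± 0.08 (adjusted p = 2.33e-04 and 2.40e-04). For KO against wild type 0 of the 90 passed in either subset on either scale.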

How the data were processed

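RNA from 12 libraries was analysed. The authors deposited a table of signal values, molecule counts divided by a factor per library and rounded to 1 decimal, with 2 columns of p-values from their own DESeq2 tests, per the file headers. TopHat2 and mm10 are named in the submitters' processing notes. Versions, the counting step and the scaling were not given in the sources used here. Between 93.0% and 94.2% of values under 15 were whole multiples of a step (tolerance 0.055), so no count test was run.

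Genes with at least 10 in at least 3 of 12 libraries were tested (4542 of 23420). limma 3.58.1 (R 4.3.3, trended prior) was fitted on log2(value + 1) with 4 group means, and p-values were adjusted by Benjamini-Hochberg over all tested genes, with 0.05 as threshold. Fold changes are on that log scale, which understates changes of low genes. The fit was repeated after median-of-ratios scaling. The scaled fit of KO against wild type in PIR+ was also run on simulated data, and its outcome is not given here. That run did not cover the subset comparisons. Members and lists were chosen with earlier results of these data known. Genes were named by a rule: up to 6 per direction called on both scales, up to 4 called after scaling only, and in each protein group the most abundant gene and the one nearest to no change; other splicing genes, up to 4 called on both scales. Srsf9, Snrpd2, Hnrnph2, Hnrnpu, Snrpf and the others outside it were named after their values were seen. Alternatives covered scaling, pseudocount, filter, prior, replicate number, embryonic day and leaving out libraries; those on the scaled values and the scaling to equal sums were added after seeing the data. Coordinates are from GRCm38, and promoters from RefSeq (GRCm38.p6). Within-group correlations of libraries were 0.935 to 0.959, and those between groups 0.781 to 0.946.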

Additional observations from a re-analysis of the deposited data

How the results depend on the processing

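Direction depended on the scale. For PIR+ against PIR- in wild type, in the KO and averaged over genotype, the deposited scale gave 15, 3 and 24 splicing genes, all higher. Median-of-ratios scaling gave 13, 7 and 18, all lower, and scaling to equal library sums 8, 6 and 12, all lower. The share of all tested genes called under equal sums is not given here. Averaged over genotype, 57 of 60 deposited log2 differences were positive, against 10 once scaled by median of ratios. The sign turned negative for 47 of the 60 and for 1692 of all 4542. Among genes named by the rule and called on the deposited scale or under the alternative, the following turned, given with their value by median of ratios and then by equal sums: Hnrnph1 in wild type (-0.48, -0.40), Hnrnpa2b1 in the KO (-0.38, -0.32) and, averaged over genotype, Hnrnpr (-0.41, -0.35), Hnrnpa3 (-0.36, -0.30), Prpf19 (-0.40, -0.33), Sf3b2 (-0.0863, -0.0195), Snrpd1 (-0.38, -0.31) and Srsf2 (-0.31, -0.24). Snrpg (-0.0258) and Srsf3 (-0.24) did so under median-of-ratios scaling. The cause was not tested. Calls of genes named by the rule were also followed across the settings on the scaled values, some with fewer libraries. Averaged over genotype, Hnrnpd, Hnrnph1, Hnrnpa3 and Mbnl1 passed in every setting. Hnrnph3, Hnrnpr, Prpf19, Snrpd1, Srsf2, Srsf3, Rbm5, Ptbp3 and Celf2 did not, but kept their sign. For example, Hnrnph3 ran from -0.65 to -0.45 and Srsf3 from -0.27 to -0.17. Within wild type or the KO, Hnrnpd in the KO alone passed in every setting.

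Deposited-scale counts in wild type were 4 without a filter, 4 without a trended prior, 2 at E12.5 and 4 to 19 leaving out 1 library. Of all tested genes, 35.6% were higher without a trend, 16.4% at E12.5 and 25.5% to 42.9% leaving out 1 library. In the KO they were 1 without a filter, 0 without a trend, 0 at E14.5, 0 without globin-rich libraries and 0 to 5 leaving out 1. From the fit without a trend on, 19.2%, 8.3%, 10.1% and 11.4% to 28.8% of all tested genes were higher. Averaged over genotype they were 15 to 34 leaving out 1 (15 without PIR+ wild type 3, PIR+ KO 3 or PIR- KO 1). In these fits 44.9% to 58.7% of all tested genes were higher. After median-of-ratios scaling, wild type gave 6 without a trend, 5 at E12.5 and 9 to 13 leaving out 1. In the same order, 9.34%, 6.87% and 8.98% to 11.1% of all tested genes were lower. The KO gave 1 without a trend and 6 to 8 leaving out 1, where 5.59% and 5.55% to 8.23% of all tested genes were lower. Averaged over genotype the counts were 16 to 19 leaving out 1, where 12.9% to 14.4% of all tested genes were lower. At E12.5 the KO comparison, and at E14.5 the wild-type comparison, had 1 library in each arm (PIR+ KO 3 and PIR- KO 1, PIR+ wild type 3 and PIR- wild type 1), so their spread came from the other groups alone. The 6 libraries with a title and markers field of the same PIR sign (the matching libraries) held 1 library of PIR- wild type and 1 of PIR+ KO. Their PIR+ libraries were all labelled E12.5 and their PIR- libraries all E14.5. For KO against wild type in PIR- the matching libraries gave 1 call on the deposited scale, and leaving out 1 library 0 to 1. Apart from these and the block below, the KO and interaction counts were 0 in every setting.

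With the replicate number as a block, the deposited counts were 27 (wild type), 11 (KO), 38 (averaged) and 3 (KO against wild type in PIR-), and after scaling the averaged count was 18. The shares of all tested genes called with the block, or without a filter, are not given here. Whether those counts are particular to splicing genes can therefore not be told. Gene by gene, same-numbered libraries did not deviate together: 1 of 18 pairs correlated above 0.1 (range -0.11 to 0.16). Such a correlation cannot see a shift of a whole library. Replicate 3 had the highest sum of its group in PIR+ and PIR- wild type (253582 and 187525) and PIR+ and PIR- KO (284648 and 222700). Whether same-numbered libraries share an origin was not tested. The share of splicing genes moved by less than 1 SD under 14 of 14 alternatives. Most of these left out 1 of 6 libraries, which cannot move a mean by 1 SD, so they are no check of it. With globin genes left out of the sum, the share was 2.11% in PIR+ and 2.33% in PIR- libraries, against 2.10% and 2.32%. Depth limits the low genes: 5 of 65 were not tested.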
